A study of Mus musculus with 5 samples.

Results

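The large aggregating proteoglycans of the lectican family, the enzyme, receptor and link protein of their partner hyaluronan, and the membrane chondroitin sulfate proteoglycans of neural cells were examined in neural stem cells (NSCs) and STO cells. The group holds 10 genes chosen by symbol, namely Ncan, Bcan, Vcan, Acan, Hapln1, Has2, Cd44, Ptprz1, Cspg4 and Cspg5, out of 24843 genes in the deposited tables, and all 10 were found. Expression of a gene is the sum of the FPKM values (fragments mapped, scaled by transcript length and library size) of its RefSeq transcripts. FPKM is scaled by length, so levels of different genes can be set side by side.

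RNA-seq was available for 2 replicates of NSCs and 3 replicates of STO cells. The NSCs were primary cells of the embryonic mouse cortex, at passages 5 to 8, grown as an adherent monoculture on poly-l-ornithine and laminin in medium with EGF, bFGF, heparin and B27. STO is an established line of SIM mouse embryonic fibroblasts, used here at a passage above 30 and grown in DMEM with fetal bovine serum, and it serves as a feeder layer for stem cell culture. Both are labelled C57BL/6, and the labels name no treatment or genetic change for either. Cell type, tissue of origin, medium and passage all change together between the groups, so their effects cannot be told apart. The labels do not say whether replicates were separate cultures, so p-values measure only the spread between these samples, which may be technical. In bulk RNA, fewer cells that express a gene and less RNA per cell cannot be told apart.

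Hyaluronan is a long unsulfated polysaccharide made at the plasma membrane by the HAS enzymes. Lecticans are core proteins that bind hyaluronan at their N-terminal end, carry chondroitin sulfate chains on a central region and bind tenascins and other matrix proteins at their C-terminal end, and link proteins (HAPLN) lock the lectican onto hyaluronan. In the developing brain this mesh is the main matrix around progenitors, whereas fibroblasts place hyaluronan and versican among collagens. Receptor-type PTPRZ1, CSPG4 (also called NG2) and CSPG5 (neuroglycan C) carry chondroitin sulfate at the cell surface of neural progenitors and glia.

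Libraries within a cell type were close, with a Pearson's r of 0.994 between the NSC replicates and of 0.994 to 0.995 between STO replicates across 11700 genes. Depth relative to NSC replicate 1 ranged from 0.717 in STO replicate 1 to 1.10 in NSC replicate 2. All 8 neural stem cell markers checked were lower in STO cells and 7 of 8 fibroblast markers were higher, while the eighth, Lum, stayed under 1 FPKM in every library. The NSCs also held RNA of markers of later glial stages and, at lower sums, of neurons. Summed over 5 oligodendrocyte precursor markers they reached 1066 to 1212 FPKM, most of it Olig1 (964 and 1108 FPKM). The same sum was 344 to 355 FPKM in STO cells, nearly all of it Pdgfra, so this sum alone does not mark a glial stage. Over 4 oligodendrocyte markers the sums were 120 to 122 FPKM in NSCs, most of it Mbp (83.4 and 88.3 FPKM), and 0.961 to 1.14 FPKM in STO cells. Over 5 neuron markers the sums were 17.5 to 19.1 FPKM in NSCs and 7.84 to 8.61 FPKM in STO cells, where nearly all of it was Tubb3. An exact 0 in these tables need not mean absence, because 1 of 73 cytoplasmic ribosomal protein genes, Rps27, is listed at 0 in all 5 libraries; it was singled out after its values were seen. Zero values are therefore reported as listed.

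Of the 10 genes, 8 had a mean of at least 1 FPKM in 1 of the cell types and were tested with limma across 12277 genes. Has2, Cd44 and Vcan were higher in STO cells, and Ncan, Bcan, Ptprz1, Cspg4 and Cspg5 were higher in NSCs. These counts, 3 higher and 5 lower in STO cells, have to be read against a background in which 41.9% of all tested genes were called higher, 43.7% lower and 85.7% either, so passing the test sets no gene apart here. The median absolute difference in log2(FPKM + 1) was 5.35 over the 8 genes and 0.74 over all genes tested, and all 8 passed with a difference of at least 1 in size, as did 38.4% of the tested genes (17.1% higher and 21.3% lower). These sizes are a description only, because Ncan, Bcan, Ptprz1, Cspg5 and Has2 passed the filter on low values through the cell type in which they are high, which favours a large difference. By absolute difference Ncan ranked 19th, Ptprz1 27th, Bcan 37th and Cspg5 117th, whereas Vcan (2101st) and Cd44 (2277th) lay far lower. Acan and Hapln1 stayed under 1 FPKM in every library and were not tested.

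**Figure D1:**
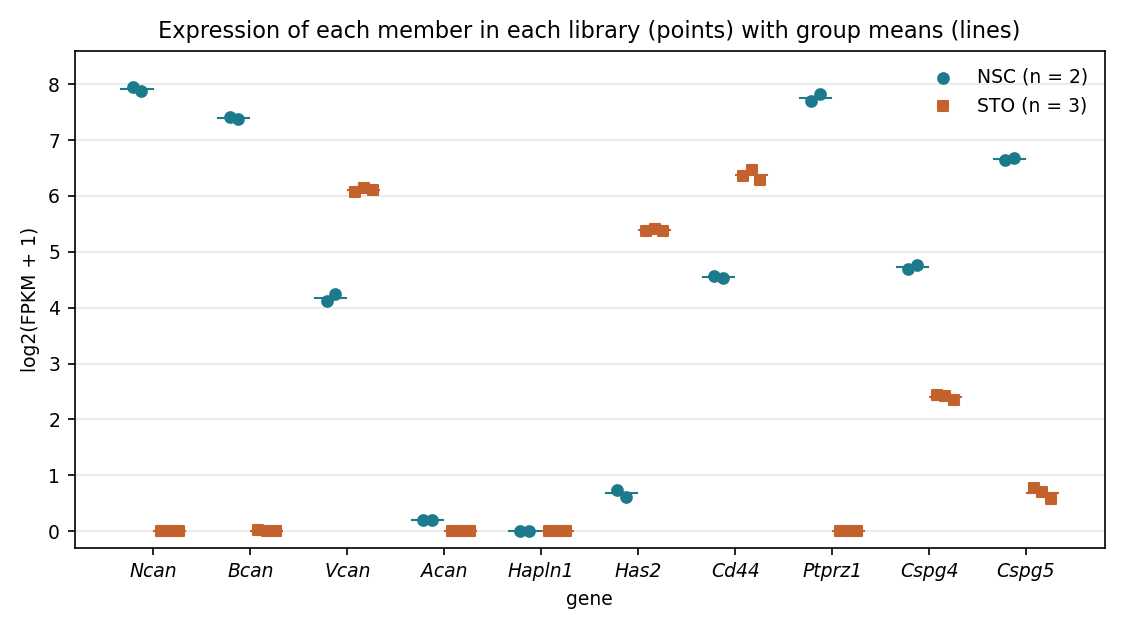
Levels of the 10 genes in each library as log2(FPKM + 1) (y axis), with the 2 NSC replicates as circles, the 3 STO replicates as squares and short lines at group means. Ncan, Bcan, Ptprz1 and Cspg5 stand high in NSCs and near 0 or below 1 in STO cells, Has2 shows the opposite, Vcan, Cd44 and Cspg4 are present in both cell types, and Acan and Hapln1 lie at or near 0 in every library.

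Neurocan, encoded by Ncan on the minus strand of chromosome 8 (mm9 chr8:72616984-72644743), is a lectican of the nervous system. It had the highest level of the group in NSCs, with 247 FPKM in replicate 1 and 235 FPKM in replicate 2. In STO cells it was listed at 0.00619, 0.00540 and 0 FPKM in replicates 1, 2 and 3, and by the deposited confidence intervals each value above 0 rested on 1 fragment, against 54662 and 57022 fragments in the NSC replicates. The groups did not overlap, as for 90% of all genes tested. The difference in log2(FPKM + 1), STO minus NSC, was -7.91 (SE 0.052, limma adjusted p = 3.13e-09). By mean level Ncan ranked 253rd of all genes in NSCs.

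Brevican, encoded by Bcan on the minus strand (mm9 chr3:87791453-87804278), is the lectican with the shortest core protein and is made by glia and their progenitors. It reached 170 and 165 FPKM in NSC replicates 1 and 2 and was listed at 0.0165, 0 and 0 FPKM in STO replicates 1, 2 and 3. The difference was -7.39 on the log2(FPKM + 1) scale (SE 0.050, limma adjusted p = 3.13e-09), with no overlap between groups. Bcan has 2 RefSeq transcripts, and the form each codes for is given from general knowledge of the RefSeq records, as the tables hold identifiers only. NM_007529, which spans the whole locus and is taken to code for the secreted protein, made up 84.2% ± 0.60 (SD, n = 2) of the gene's FPKM in NSCs. NM_001109758 ends earlier, within the locus at mm9 position 87796436, and is taken to code for the form held at the membrane by a glycolipid anchor. It made up 15.8% ± 0.60 (SD, n = 2). Both transcripts were higher in NSCs, with STO minus NSC differences of -7.15 (SE 0.048, limma adjusted p = 8.36e-07) and -4.77 (SE 0.053, adjusted p = 1.16e-06) in log2(FPKM + 1) among 16257 transcripts tested, of which 39% were lower, 38.1% higher and 77.1% either. With a pseudocount of 0.1 the difference of NM_001109758 became -7.98. Both transcripts passed the filter on low values only through NSCs, so their differences and p-values are a description only.

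Versican, encoded by Vcan on the minus strand (mm9 chr13:89794915-89882117), is the lectican shared by brain, mesenchyme and vessel wall. It was present in both cell types, at 16.3 and 18.0 FPKM in NSC replicates 1 and 2 and at 65.9, 69.5 and 67.8 FPKM in STO replicates 1, 2 and 3. Every STO replicate lay above both NSC replicates, and the ratio of the means was 3.95 (3.67 to 4.25 over all pairs of an STO with an NSC replicate). The difference in log2(FPKM + 1) was 1.92 (SE 0.060, limma adjusted p = 3.78e-07).

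The gene total hides a change of splice form. Versican forms are named by which of the chondroitin sulfate attachment exons they keep. In the GENCODE annotation of mm9 the alpha exon is exon 7 of the transcript that keeps both exons whole (chr13:89842523-89845402, 2880 bases, 960 codons) and the beta exon is exon 8 (chr13:89827890-89833106, 5217 bases, 1739 codons). V0 keeps both, V1 keeps the beta exon, V2 keeps the alpha exon and V3 lacks both, and thus has no region for the long chains. The 30 bases across the exon junction that each form has and the others lack are given here from the mm9 genome, 15 bases on each side and 5′ to 3′ on the coding strand, with bases of the alpha or beta exon in capitals and bases of exons 6 and 9 in lower case. They show how the forms are told apart in reads that cross a junction.
V0, exon 7 to exon 8: GAGAAAACAAGACAGGTCGATTGAGTGATA
V1, exon 6 to exon 8: cctactgctttaaacGTCGATTGAGTGATA
V2, exon 7 to exon 9: GAGAAAACAAGACAGgacctgatctctgca
V3, exon 6 to exon 9: cctactgctttaaacgacctgatctctgca

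The versican identifiers were likewise given their form from general knowledge. In NSCs the V2 transcript, NM_001134474, was at 14.3 and 15.8 FPKM in replicates 1 and 2, and it was listed at 0 in all 3 STO replicates. It made up 87.6% ± 0.33 (SD, n = 2) of versican FPKM in NSCs. In STO cells the V1 transcript, NM_019389, was at 44.3, 45.1 and 44.9 FPKM in replicates 1, 2 and 3, and it was listed at 0 in both NSC replicates. It made up 66.1% ± 1.24 (SD, n = 3) of versican FPKM there. The V0 transcript, NM_001081249, was the form seen in both cell types, at 2.06 and 2.18 FPKM in the NSC replicates and at 21.6, 24.5 and 22.8 FPKM in the STO replicates, which were 12.4% ± 0.33 (SD, n = 2) and 33.9% ± 1.24 (SD, n = 3) of the gene. V3 (NM_001134475) and the truncated NM_172955 were listed at 0 throughout. Relative to NSCs, V2 differed in STO cells by -4.00 (SE 0.068, limma adjusted p = 2.46e-06), V1 was higher by 5.52 (SE 0.042, adjusted p = 9.03e-07) and V0 was higher by 2.94 (SE 0.069, adjusted p = 5.86e-06), all in log2(FPKM + 1). With a pseudocount of 0.1 the V2 and V1 differences became -7.24 and 8.81. Both V2 and V1 passed the filter on low values only through the cell type in which they are high. Their differences and p-values are therefore a description only.

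The beta exon was therefore in every versican transcript above 0 in STO cells and in 12.4% of versican FPKM in NSCs, while the alpha exon was in every one above 0 in NSCs and in 33.9% in STO cells. These shares come from the division of shared reads among overlapping transcripts by Cufflinks, and reads over single exons or junctions were not used here. When the gene was represented by its transcript with the highest mean, which is V1, the versican difference rose from 1.92 to 5.52.

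**Figure D2:**
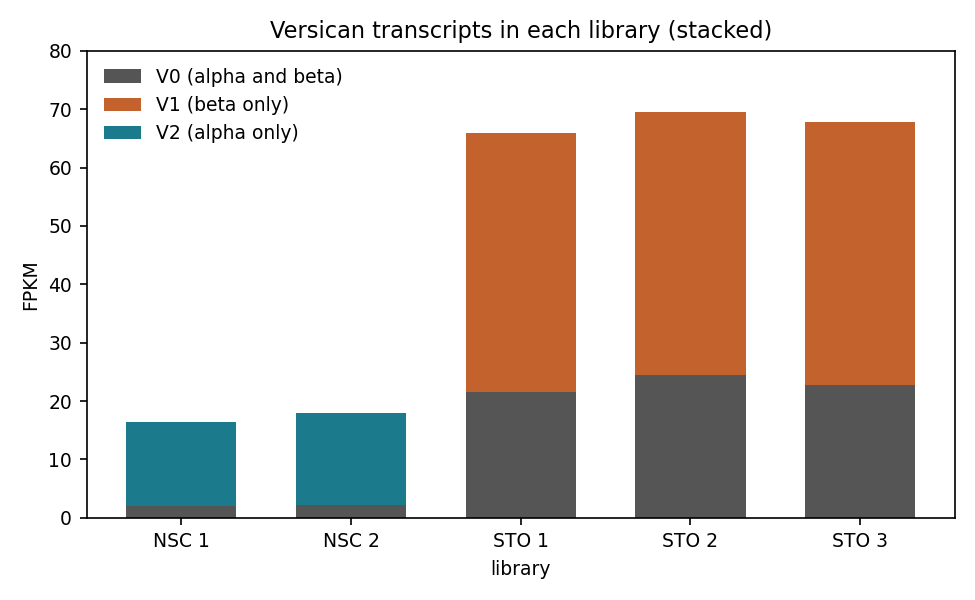
FPKM (y axis) of the versican transcripts V0, V1 and V2, stacked for each of the 5 libraries (x axis). The NSC bars are mostly V2 (14.3 and 15.8 FPKM) on a thin layer of V0, and the STO bars are V1 (44.3 to 45.1 FPKM) on V0 (21.6 to 24.5 FPKM), with no V2.

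Aggrecan, encoded by Acan (mm9 chr7:86198369-86259985, plus strand), is the lectican of cartilage and of perineuronal nets around mature neurons. It was near 0 in both cell types, at 0.147 and 0.154 FPKM in NSC replicates 1 and 2 and at 0.00603, 0 and 0 FPKM in STO replicates 1, 2 and 3. Both NSC values lay above the STO values, but they rested on 33.4 and 38.9 implied fragments. Without the filter on low values the difference was -0.20 (SE 0.016, limma adjusted p = 0.000133). In that setting 6551 of 17645 genes were called lower in STO cells and 5912 higher.

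Summed over the 4 lecticans, NSCs had 426 ± 10.7 FPKM (SD, n = 2) and STO cells 67.7 ± 1.81 FPKM (SD, n = 3). Ncan supplied 56.6% ± 0.53 (SD, n = 2) of this sum in NSCs, Bcan 39.4% ± 0.16 and Vcan 4.04% ± 0.37. In STO cells Vcan supplied 99.98% ± 0.023 (SD, n = 3). Thus the lectican pool of NSCs was mostly neurocan and brevican, and that of STO cells was versican.

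Because the lecticans divide between the cell types, the RefSeq promoters of the 4 genes are shown, from 250 bases before to 50 bases after the start (GRCm38.p6, 5′ to 3′ on the gene's strand). Capitals mark matches on either strand to the TATA box letters TATAAA, the GC box letters GGGCGG, or the SOX motif letters ACAAAG and AACAAT. Where matches overlap, they appear as 1 run.
Ncan, chr8:70120795-70121094, minus strand: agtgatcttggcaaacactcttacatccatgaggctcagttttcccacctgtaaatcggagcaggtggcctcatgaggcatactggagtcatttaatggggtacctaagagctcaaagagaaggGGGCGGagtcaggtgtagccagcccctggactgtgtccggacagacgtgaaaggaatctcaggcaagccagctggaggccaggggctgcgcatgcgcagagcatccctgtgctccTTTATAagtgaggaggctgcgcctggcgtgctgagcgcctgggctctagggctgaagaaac
Bcan, chr3:88000307-88000606, minus strand: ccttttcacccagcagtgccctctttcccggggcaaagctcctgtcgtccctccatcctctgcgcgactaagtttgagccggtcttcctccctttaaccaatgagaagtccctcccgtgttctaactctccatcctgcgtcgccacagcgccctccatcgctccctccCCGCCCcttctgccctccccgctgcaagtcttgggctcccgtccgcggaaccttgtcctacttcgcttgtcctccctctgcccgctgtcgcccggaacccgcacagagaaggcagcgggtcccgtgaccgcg
Vcan, chr13:89742463-89742762, minus strand: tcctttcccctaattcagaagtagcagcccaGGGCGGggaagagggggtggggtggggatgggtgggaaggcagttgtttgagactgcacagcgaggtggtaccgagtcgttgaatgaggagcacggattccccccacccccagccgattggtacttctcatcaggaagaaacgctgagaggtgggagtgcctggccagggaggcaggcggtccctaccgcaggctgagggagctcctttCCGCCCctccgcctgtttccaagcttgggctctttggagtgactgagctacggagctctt
Acan, chr7:79052976-79053275, plus strand: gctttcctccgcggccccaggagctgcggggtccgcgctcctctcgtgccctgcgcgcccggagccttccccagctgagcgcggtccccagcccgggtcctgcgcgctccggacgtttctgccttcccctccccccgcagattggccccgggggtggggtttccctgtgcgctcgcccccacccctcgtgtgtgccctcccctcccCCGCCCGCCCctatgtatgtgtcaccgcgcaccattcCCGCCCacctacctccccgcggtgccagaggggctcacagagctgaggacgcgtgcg

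Of the 10 genes, 8 had a promoter in the table. Ncan had the TATA box letters, read on the opposite strand and starting 11 bases before the start, which 13.6% of 32851 promoters hold on either strand. GC box letters, held by 35.7% of promoters, were in all 4 lectican promoters. They were also in the windows of Cd44, Ptprz1 and Cspg4, but not of Hapln1, so they are not particular to the lecticans. Neither SOX motif, held by 18.7% and 10.7% of promoters, was found in the windows of the 8 genes. The G and C content was 56.7% for Ncan, 64.0% for Bcan, 61.0% for Vcan and 74.0% for Acan, against a median of 52.7%. These matches describe letters in a short window and no binding was measured.

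Each lectican gene has a link protein gene beside it, and the neighbours of Vcan, Bcan and Ncan were far lower than the lectican wherever that lectican was expressed. Hapln1, whose product HAPLN1 is the link protein of cartilage and heart valves, lies 43.5 kb from Vcan on chromosome 13 (mm9 chr13:89680241-89751437, plus strand). It was listed at 0.00629 FPKM in NSC replicate 1, which rested on 1 fragment, and at 0 in the other 4 libraries, while Vcan was at 16.3 FPKM or more in all 5. Hapln2 lies 21.4 kb from Bcan and was at 0.0155 and 0.0847 FPKM in the NSC replicates and at 0 in STO cells. Hapln3, 1.93 kb from Acan, was at 0.178 and 0.162 FPKM in NSCs and at 0.0309, 0 and 0 FPKM in STO cells, close to the low level of Acan itself in NSCs. Hapln4, a brain link protein 2.22 kb from Ncan, was the only 1 of the 4 tested. It was at 5.22 and 5.10 FPKM in NSC replicates 1 and 2 and at 3.09, 3.45 and 3.20 FPKM in STO replicates 1, 2 and 3, a difference of -0.54 (SE 0.058, limma adjusted p = 0.000168). No other gene in the tables lay between the genes of any of these 4 pairs.

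HAS2, encoded by Has2 (mm9 chr15:56497182-56526101, minus strand), is the hyaluronan synthase that most embryonic mesenchyme depends on. It was at 40.5, 41.5 and 40.6 FPKM in STO replicates 1, 2 and 3 and at 0.659 and 0.533 FPKM in NSC replicates 1 and 2. The ratio of the means was 68.6 (61.5 to 77.8 over pairs), and the difference in log2(FPKM + 1) was 4.71 (SE 0.057, limma adjusted p = 7.34e-09). The NSC values rested on 82.4 and 73.3 implied fragments. The antisense gene Has2os overlaps the locus and was listed at 0 in all 5 libraries, and whether counting used strand is not given in the sources used here. The microRNA gene Mir7066 overlaps Ncan and was likewise listed at 0. The other synthases stayed under 1 FPKM, with Has1 at 0.0139 to 0.0456 FPKM in NSCs and 0.388 to 0.593 FPKM in STO cells, and Has3 at 0.288 to 0.462 FPKM and 0.527 to 0.760 FPKM. Has2 thus supplied most of the synthase FPKM in STO cells, and in NSCs the 3 synthases summed to 0.835 to 1.17 FPKM.

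CD44, encoded by Cd44 (mm9 chr2:102651300-102741822, minus strand), is the main cell surface receptor for hyaluronan. It was the member with the highest level in STO cells, at 81.4, 87.5 and 76.6 FPKM in replicates 1, 2 and 3, and was at 22.7 and 22.1 FPKM in the NSC replicates. The lowest STO value was 3.37 times the highest NSC value, and the ratio of the means was 3.65. The difference was 1.82 in log2(FPKM + 1) (SE 0.069, limma adjusted p = 8.90e-07). Of 6 RefSeq transcripts of Cd44, NM_001039151 carried all of the FPKM in all 5 libraries and the other 5 were listed at 0. This division of reads was estimated by Cufflinks, which can set a transcript to 0, so whether the form changed cannot be judged from it.

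Other genes of hyaluronan handling were described by count, and each count of a list here and in the following paragraphs stands beside 41.9% of all tested genes called higher and 43.7% called lower. Of 13 hyaluronan receptors and binding proteins, 4 were tested, 2 were higher in STO cells and 1 was lower. Layn, which codes for the receptor layilin, was higher by 2.93 (SE 0.063, limma adjusted p = 6.33e-08), at 41.9 to 45.6 FPKM against 4.61 and 4.99 FPKM. Tnfaip6, whose product TSG-6 modifies hyaluronan, was lower by 0.57 (SE 0.10, adjusted p = 0.00209), and without NSC replicate 1 this was no longer past the threshold (-0.53, adjusted p = 0.056). Of 9 hyaluronan-degrading enzymes, 4 were tested and 3 were lower in STO cells. Hyal1, a lysosomal hyaluronidase, was at 11.2 and 10.4 FPKM in NSCs and at 3.81 to 4.31 FPKM in STO cells. The difference was -1.21 (SE 0.068), or -0.83 for its highest transcript alone. Hyal2 (-0.38, SE 0.050) and Cemip (-0.54, SE 0.050) differed less. Cemip moved to -0.96 with a pseudocount of 0.1 and did not pass after quantile normalization (-0.045, limma adjusted p = 0.44).

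PTPRZ1, a receptor tyrosine phosphatase with chondroitin sulfate on its extracellular part, is encoded by Ptprz1 (mm9 chr6:22825502-23002916, plus strand). It was at 206 and 226 FPKM in NSC replicates 1 and 2 and listed at 0 in all 3 STO replicates. No fold is given against values listed at 0. The difference in log2(FPKM + 1) was -7.76 (SE 0.060, limma adjusted p = 4.18e-09). All of its FPKM was in NM_001081306, and NM_001311064 was listed at 0 in every library. By mean level it ranked 287th in NSCs.

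CSPG5, a transmembrane proteoglycan with an EGF-like domain, is encoded by Cspg5 (mm9 chr9:110146287-110165080, plus strand). It was at 98.7 and 101 FPKM in NSC replicates 1 and 2 and at 0.702, 0.633 and 0.484 FPKM in STO replicates 1, 2 and 3. The NSC mean was 165 times the STO mean (141 to 209 over pairs), and the difference was -5.98 in log2(FPKM + 1) (SE 0.073, limma adjusted p = 7.34e-09). The STO values rested on 55.9 to 59.2 implied fragments, so the low level was measured above 0 in each replicate.

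CSPG4, known as NG2 and used as a marker of oligodendrocyte precursors and pericytes, is encoded by Cspg4 (mm9 chr9:56712911-56747677, plus strand). It was present in both cell types, at 24.8 and 26.3 FPKM in the NSC replicates and at 4.44, 4.35 and 4.09 FPKM in the STO replicates. The NSC mean was 5.95 times the STO mean (5.59 to 6.43 over pairs), and the difference was -2.33 (SE 0.059, limma adjusted p = 1.34e-07). Beside it, 4 of 5 oligodendrocyte precursor markers were lower in STO cells and 1, Pdgfra, was higher. Olig1 was at 964 and 1108 FPKM in NSCs and listed at 0 in STO cells, and Gpr17 was at 44.4 and 43.6 FPKM in NSCs and at most 0.0149 FPKM in STO cells. Summed over 5 astrocyte markers the NSCs reached 70.5 to 71.6 FPKM, most of it Aldh1l1 (47.0 and 45.7 FPKM), and the STO cells 0.242 to 0.432 FPKM. All 4 pericyte markers were under 1 FPKM in every library, summed to 0.411 to 0.426 FPKM in NSCs and 0.0283 to 0.0568 FPKM in STO cells, and Abcc9 was listed at 0 throughout. Whether cells at later glial stages were present, and contributed to the NSC levels of Cspg4, Bcan and Ptprz1, was not tested.

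**Figure D3:**
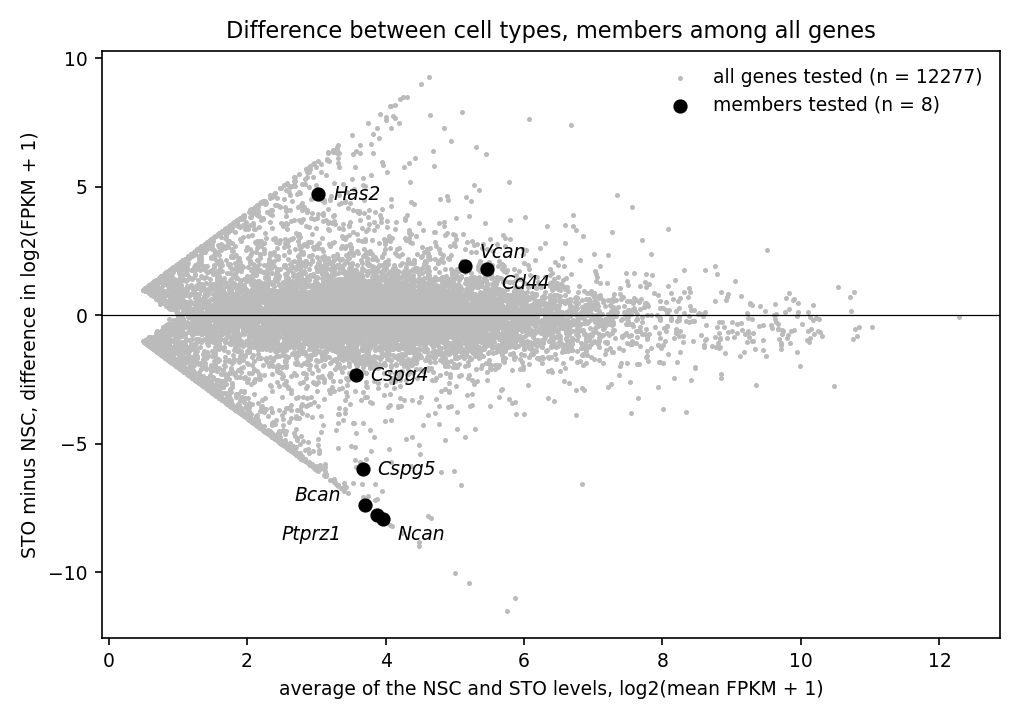
Difference between STO cells and NSCs in log2(FPKM + 1) (y axis) against the average of the levels in both cell types (x axis) for 12277 genes (grey) and the 8 members tested (black, named). Ncan, Ptprz1, Bcan and Cspg5 lie on the lower edge of the cloud, where the STO level is near 0, Has2 lies near the upper edge, and Vcan, Cd44 and Cspg4 lie inside it.

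The order of levels differed between the cell types. In NSCs it ran Ncan, Ptprz1, Bcan, Cspg5, Cspg4, Cd44, Vcan, Has2, Acan and Hapln1, and the ranges of the 2 replicates did not overlap between neighbours. In NSC replicate 2, however, the deposited confidence intervals of Ncan (233 to 237 FPKM) and Ptprz1 (217 to 236 FPKM) overlapped, so their order is not firm. In STO cells it ran Cd44, Vcan, Has2, Cspg4 and Cspg5, again without overlap, followed by Bcan, Ncan, Acan, Hapln1 and Ptprz1, which were at or near 0 and could not be ordered. Together the 10 genes made up 0.178% of all FPKM in each NSC replicate and 0.0474% to 0.0528% in STO replicates.

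The genes closest to the leading members were found by Euclidean distance in log2(FPKM + 1) over the 5 libraries, as a description. Closest to Ncan were Scrg1 (distance 0.0787), Rtn1 (0.187) and Gpm6a (0.208), each at 214 to 243 FPKM in NSCs and listed at 0 in STO cells. Closest to Cd44 were Mast2 (0.125), Rnf11 (0.173) and Ifrd1 (0.227), each at 21.6 to 23.6 FPKM in NSCs and 76.9 to 85.2 FPKM in STO cells.

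The machinery for chondroitin sulfate chains was expressed in both cell types, and a few of its genes, such as Xylt1, differed widely in level. Of 12 linker and chain enzymes, 11 were tested, 5 were higher and 5 lower in STO cells, and the median difference was -0.058, beside -0.023 over all genes. Xylt1 and Xylt2 code for the xylosyltransferases that start the chain. Xylt1 was at 49.4 and 49.8 FPKM in NSCs and at 0.277 to 0.361 FPKM in STO cells, a difference of -5.25 (SE 0.056), whereas Xylt2, named after its values were seen, was at 9.72 to 11.8 FPKM in all libraries (0.19, SE 0.058, limma adjusted p = 0.0207). Csgalnact2, which adds the first N-acetylgalactosamine, was higher in STO cells by 1.81 (SE 0.062), as was the chain polymerizing factor Chpf2 by 1.43 (SE 0.071). Csgalnact1, named after its values were seen, was at 7.79 to 9.91 FPKM in all libraries (-0.25, SE 0.056). B3gat3 (-0.50, SE 0.078) and Chpf (0.33, SE 0.071) also differed less. Chsy3 was at 0.737 and 0.793 FPKM in NSCs and listed at 0 in STO cells.

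Sulfotransferases and epimerases set the pattern of sulfate and of uronic acid along the chain. Of 10 sulfotransferases and epimerases, 9 were tested, 5 were higher and 4 lower, with a median difference of 0.78. Higher in NSCs were the 4-O-sulfotransferase gene Chst11, at 103 and 107 FPKM against 11.3 to 11.4 FPKM (-3.10, SE 0.048), the 6-O-sulfotransferase genes Chst7 (-4.20, SE 0.078) and Chst3 (-2.77, SE 0.057, or -5.79 with a pseudocount of 0.1). Higher in STO cells were the epimerase genes Dse, at 22.7 to 23.9 FPKM against 0.760 and 0.941 FPKM (3.72, SE 0.064), and Dsel (2.04, SE 0.059), and the dermatan 4-O-sulfotransferase Chst14, at 16.4 to 18.4 FPKM against 1.26 and 1.20 FPKM (3.02, SE 0.066). The other 3 genes tested are named after their values were seen. The uronyl 2-O-sulfotransferase gene Ust was lower in STO cells (-1.30, SE 0.057), while Chst12, which codes for another chondroitin 4-O-sulfotransferase, was higher (0.78, SE 0.072), as was Chst15 (1.55, SE 0.084). All 9 passed the limma test, beside 85.7% of all genes tested, so the count does not set this list apart.

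Sugar precursors feed both hyaluronan and chondroitin sulfate, whereas the sulfate donor is needed for chondroitin sulfate and not for hyaluronan. All 10 genes entered the fit, and 6 passed with a higher and 3 with a lower level in STO cells, with a median difference of 0.39. Ugdh, the enzyme that makes UDP-glucuronic acid, was at 140 to 147 FPKM in STO cells and at 26.8 and 26.4 FPKM in NSCs (2.39, SE 0.051). The enzymes that make the sulfate donor went in opposite directions, but Papss1 lay far above Papss2 in every library. Papss1 was at 78.8 and 83.3 FPKM in NSCs and at 52.0 to 54.1 FPKM in STO cells (-0.60, SE 0.053, or -0.26 for its highest transcript alone). Papss2 was at 2.86 to 3.35 FPKM in STO cells and 0.0618 and 0.0323 FPKM in NSCs (1.95, SE 0.064, or 4.43 with a pseudocount of 0.1). Uap1, of UDP-N-acetylhexosamine synthesis, was higher in STO cells by 1.17 (SE 0.077), or by 4.05 for its highest transcript alone.

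Proteases that cut lecticans were tested for 4 of 7 genes, of which 2 were higher and 1 lower in STO cells. Adamts5 was at 8.68 to 10.3 FPKM in STO cells and at 1.50 FPKM in both NSC replicates (2.08, SE 0.078), and Adamts1 was higher by 1.75 (SE 0.050). Adamts4 was lower by 0.63 (SE 0.059), at 5.85 to 6.34 FPKM against 10.3 and 9.64 FPKM.

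Of 13 ligands and receptors of these proteoglycans, 11 were tested, 8 were lower and 2 higher in STO cells, with a median difference of -2.83. Of all genes tested 43.7% were lower, 41.9% higher and 85.7% either. Ptn, whose product pleiotrophin binds the chondroitin sulfate of PTPRZ1, was at 1136 and 1251 FPKM in NSCs and at 83.4 to 91.8 FPKM in STO cells (-3.76, SE 0.074). Cntn1, the contactin that binds PTPRZ1, was at 106 and 117 FPKM in NSCs and listed at 0 in STO cells (-6.81, SE 0.060). Tnr, which codes for the lectican partner tenascin-R, was at 27.3 and 29.1 FPKM in NSCs and at 0.0216 to 0.0430 FPKM in STO cells (-4.82, SE 0.052, or -7.74 with a pseudocount of 0.1). Tnc, the gene of tenascin-C, was high in both cell types and is named after its values were seen. It was at 180 and 184 FPKM in NSCs and at 93.2 to 104 FPKM in STO cells (-0.88, SE 0.064). Fbln2 and Fbln1, whose fibulins bind versican and aggrecan, were higher in STO cells by 2.39 (SE 0.055) and 2.78 (SE 0.052), and are named as the 2 that rose after their values were seen.

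Among 15 other genes listed as chondroitin sulfate core proteins, 9 were tested, 6 were higher and 2 lower in STO cells, with a median difference of 1.14. That median is the value of Smc3 (1.14, SE 0.068), which was counted among the 6 higher. Smc3 codes for a subunit of the cohesin complex, so its RNA level cannot be read as that of a matrix proteoglycan. Bgn, the small proteoglycan biglycan, was at 497 to 540 FPKM in STO cells and at 0.0262 and 0 FPKM in NSCs (8.99, SE 0.057). Dcn, the related decorin, was at 174 to 184 FPKM in STO cells and listed at 0 in NSCs (7.49, SE 0.051). In the other direction, Spock2, a brain testican, was at 21.8 and 24.0 FPKM in NSCs and at 0.0149 to 0.0906 FPKM in STO cells (-4.51, SE 0.064, or -7.28 with a pseudocount of 0.1). All named genes of this list passed at limma adjusted p under 0.05.

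**Figure D4:**
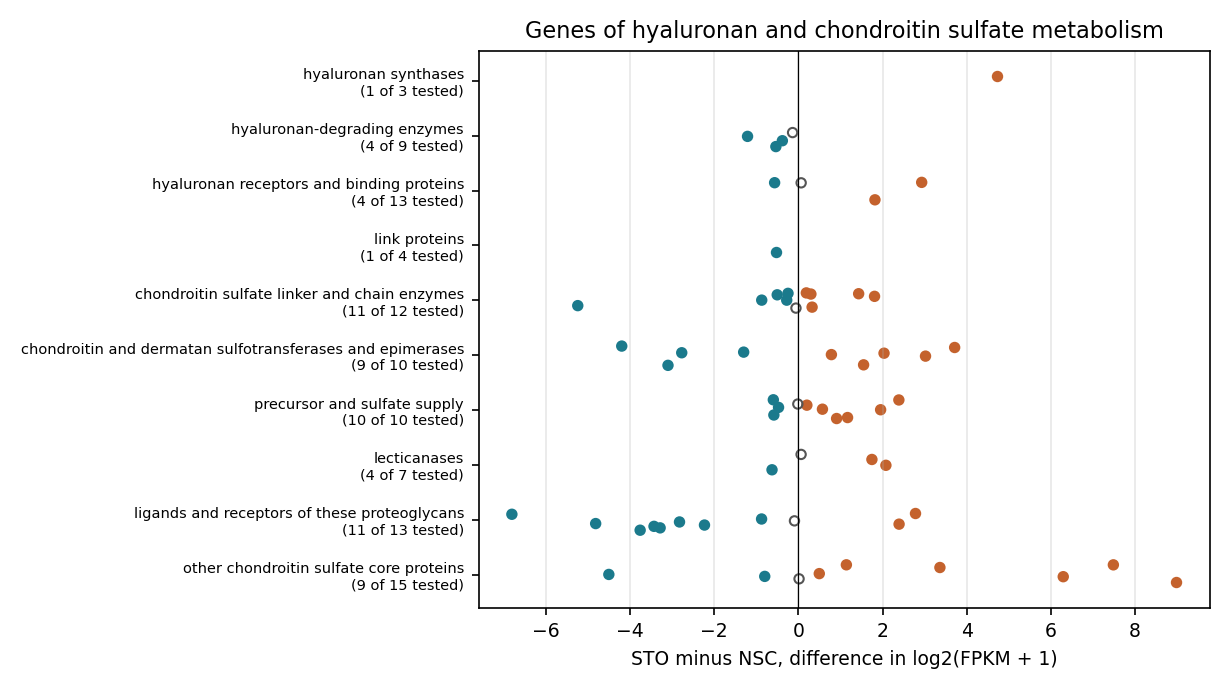
Difference in log2(FPKM + 1) between STO cells and NSCs (x axis) for the tested genes of 10 lists of hyaluronan and chondroitin sulfate genes (rows, with the number tested of the number listed). Filled points passed the limma test (orange higher in STO cells, teal lower), open circles did not, and vertical scatter within a row only separates points. Sulfotransferases and epimerases lie on both sides of 0 from -4.20 to 3.72, and ligands and receptors lie mostly below 0.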

How the data were processed

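RNA-seq of poly(A) RNA (stranded kit, paired ends) was read from 1 deposited table for each of 5 libraries. Per the submitters' processing notes, the authors aligned reads with HISAT2 (given as 4.8.2) to mm9 and ran Cufflinks 2.2.1, and they deposited FPKM with confidence limits for 40201 RefSeq transcripts. Of these, 39951 (99.4%) were matched to symbols, and FPKM was summed for each of 24843 genes. Cufflinks divides reads among overlapping transcripts by estimation, which can set a transcript to 0. Counts were not used here; fragments behind a value were inferred from its interval, taken as 2 Poisson SD on each side, and relative depth from 5172 genes with 1 transcript and at least 100 such fragments.

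Genes (12277) or transcripts (16257) with a mean of at least 1 FPKM in NSCs or STO cells were compared with limma 3.58.1 in R 4.3.3 on log2(FPKM + 1), with a mean trend and Benjamini-Hochberg adjustment over all tested, at a threshold of 0.05. The code was tested on simulated data. Such differences understate the change of low genes and, for genes at 0, depend on the pseudocount. Genes and transcripts with a mean under 1 FPKM in 1 cell type passed the filter only through the other, which favours a large difference. For these, in the lists as well, differences and p-values are a description only. Members and lists were chosen with earlier results of these data known. From each list, at most the 6 genes with the largest difference past the threshold were to be named, and any listed at 0 throughout 1 cell type. Has1, Has3, Hapln3, Xylt2, Csgalnact1, Ust, Chst12, Chst15, Tnc, Fbln1 and Fbln2 fall outside this rule and were named after their values were seen. Exon and junction sequences came from mm9 with GENCODE annotation, promoters from RefSeq (GRCm38.p6). Alternatives covered the pseudocount, filters, scaling, trend, replicate block, each library left out, and the choice of transcript.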

Additional observations from a re-analysis of the deposited data

How the results depend on the processing

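Across the alternatives run, all 112 values of the 8 tested members and all 132 of their transcripts kept their direction and stayed past the threshold. Of the values for related genes, 541 did so and 2 did not, Cemip after quantile normalization (-0.045, limma adjusted p = 0.44) and Tnfaip6 without NSC replicate 1 (-0.53, adjusted p = 0.056); the cause was not tested. The settings on filters and trend left the size of each member's difference unchanged by construction. Ncan, Bcan, Ptprz1, Cspg5 and Has2, and versican V1 and V2, were under 1 FPKM on average in 1 cell type and could hardly reverse. The counts of values that kept their direction are therefore a description only. A required difference of 1 or more reduced the calls to 2099 upward and 2613 downward in STO cells, fewer by construction. Without the filter on low values 6 members were lower, Acan being added, beside 6551 lower and 5912 higher of 17645 genes. The added call therefore does not set Acan apart.

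Same-numbered replicates did not deviate together (correlations 0.0058 and 0.064), so numbers were not taken to pair samples. The replicate block gave 4988 upward and 5249 downward calls among genes, 5592 and 5850 among transcripts, and 3 and 5 among members. With 1 library left out, genes ranged from 4703 to 5060 higher and from 4899 to 5248 lower, transcripts from 5488 to 5950 and from 5628 to 6108, and members stayed at 3 and 5.

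Sizes moved most with the pseudocount and the choice of transcript. With 0.1 the differences of Ncan, Bcan and Ptprz1 reached -11.2, -10.6 and -11.1, and for its highest transcript alone that of Vcan was 5.52. With 2 NSC libraries, spread within NSCs rests on 1 difference, and STO levels of Ncan, Bcan and Acan rest on at most 1 fragment per library.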
